A study of Mus musculus with 16 samples.

Results

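Acod1, Fpr1, Fpr2, Clec4e, Clec4d, Trem1, Marco and Ptgs2 are inflammatory genes of macrophages, monocytes and neutrophils, and their RNA levels are described here in PDA30364 pancreatic tumors of mice given gemcitabine (GEM), an agonist anti-CD40 antibody (Ab), both or neither. The set holds 8 genes, and Acod1 and Fpr2 were put in it because their values were higher with anti-CD40 Ab than in controls on these same arrays. A gene counted as measured where the array annotation lists at least 1 probe set for it alone, and the probe set with the highest mean over the 16 arrays stood for it. This gave 7 of the 8 genes, out of 18193 genes in the whole table. No probe set was listed for Fpr1 alone, and its level was not analysed here.

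Each of 4 groups held 4 arrays, 16 in all, and the labels give 4 mice per group, except that 1 animal number stands in the titles of both GEM replicate 3 and GEM replicate 4. Whether these are 2 tumors is not settled by the labels. Their values differed as much as those of other GEM tumors, which does not settle it either, since 2 pieces of 1 tumor can also differ. They were kept as 2 samples, with their average as an alternative. All mice were C57BL/6-Ly5.1 animals aged 6 to 12 weeks that carried a subcutaneous tumor from 500000 PDA30364 cells injected in Matrigel into the flank. PDA30364 is a single cell line made from pancreatic tumors of genetically engineered mice, so that all tumors grew from 1 line. Mice assigned to GEM, a chemotherapeutic nucleoside analog, received 120 mg/kg on days 1, 5 and 12 of treatment. The agonist anti-CD40 Ab, a mouse IgG1, was injected on days 3, 4, 6 and 14. The control group received vehicle and control IgG. The anti-CD40 Ab group received the vehicle in place of GEM, the GEM group the isotype control in place of anti-CD40 Ab, and the GEM/anti-CD40 Ab group both agents. Tumors were taken on day 22 or 23 after inoculation, and RNA of whole tumor pieces was hybridized to Affymetrix mouse genome arrays. Values are log2 intensities. A level can be compared between arrays for 1 probe set but not between probe sets, and in a whole tumor more cells of a type cannot be told apart from more RNA per cell. Some arrays stood apart: the mean of 10 keratinocyte genes of skin was 8.50 in control replicate 2 and 6.78 in anti-CD40 Ab replicate 2, and that of 10 skeletal muscle genes was 12.07 in GEM/anti-CD40 Ab replicate 4. The muscle mean was also raised, to a lesser degree, in GEM replicate 4 (7.69) and control replicate 4 (7.23).

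CD40 is a receptor of B cells, dendritic cells and macrophages, and its ligation by an agonist antibody activates these cells. Activated myeloid cells turn on a shared program of pattern recognition receptors, inflammatory enzymes and chemokines. Acod1 encodes the mitochondrial enzyme that makes itaconate from the TCA cycle intermediate cis-aconitate. Fpr1 and Fpr2 encode receptors for formylated peptides, which guide neutrophils and monocytes, and Fpr2 also binds serum amyloid A and annexin A1. Clec4e (Mincle) and Clec4d (MCL) are C-type lectins that bind the mycobacterial cord factor and signal through the Fc receptor gamma chain, SYK and CARD9. Trem1 is an amplifying receptor of neutrophils and monocytes that signals through the adaptor DAP12. Marco is a class A scavenger receptor of macrophages, and Ptgs2 encodes cyclooxygenase-2, the inducible enzyme of prostaglandin synthesis, which tumor and stromal cells can express as well.

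The promoters of 4 of the genes are printed to show the sequences in front of 3 genes whose values moved together over the arrays (Acod1, Clec4e and Clec4d) and of 1 whose values did not (Ptgs2). The sequences are RefSeq's of build GRCm38.p6, each 300 bases from 250 bases before to 50 bases after the start of the gene, in the gene's own direction. They lie at chr14:103046762-103047061 on the plus strand for Acod1, chr6:123289822-123290121 on the minus strand for Clec4e, chr6:123261857-123262156 on the plus strand for Clec4d and chr1:150099781-150100080 on the plus strand for Ptgs2. Clec4d and Clec4e are neighbours with 0 protein-coding genes between them, as are Fpr1 and Fpr2. Capitals mark a match to 1 of the 4 motifs searched.
Acod1: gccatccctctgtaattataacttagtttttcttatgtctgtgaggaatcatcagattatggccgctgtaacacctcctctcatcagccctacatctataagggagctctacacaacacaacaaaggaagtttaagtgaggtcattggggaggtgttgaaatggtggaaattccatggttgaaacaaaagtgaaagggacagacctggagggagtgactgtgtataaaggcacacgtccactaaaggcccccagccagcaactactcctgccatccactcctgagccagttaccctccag
Clec4e: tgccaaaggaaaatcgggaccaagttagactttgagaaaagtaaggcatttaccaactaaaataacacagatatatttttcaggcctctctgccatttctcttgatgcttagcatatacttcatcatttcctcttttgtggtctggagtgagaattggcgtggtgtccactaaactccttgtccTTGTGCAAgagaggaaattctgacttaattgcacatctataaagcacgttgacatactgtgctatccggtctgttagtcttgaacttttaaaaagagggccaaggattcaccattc
Clec4d: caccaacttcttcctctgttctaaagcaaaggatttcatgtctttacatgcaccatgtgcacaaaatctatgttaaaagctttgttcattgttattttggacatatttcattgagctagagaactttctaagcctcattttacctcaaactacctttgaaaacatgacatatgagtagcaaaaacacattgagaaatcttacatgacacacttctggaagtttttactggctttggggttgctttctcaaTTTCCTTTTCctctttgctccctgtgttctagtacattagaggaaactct
Ptgs2: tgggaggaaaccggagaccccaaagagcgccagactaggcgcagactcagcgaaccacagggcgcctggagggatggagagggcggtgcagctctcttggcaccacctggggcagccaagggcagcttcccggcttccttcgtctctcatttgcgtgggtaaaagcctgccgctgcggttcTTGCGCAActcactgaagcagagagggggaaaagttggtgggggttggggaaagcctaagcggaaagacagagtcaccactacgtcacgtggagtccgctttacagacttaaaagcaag

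Motifs were searched on both strands in the promoter windows of all 8 genes. They were C/EBP (TTGCNNAA), AP-1 (TGANTCA), the NF-kB site (kB, read as GGG, any 2 bases and TTTCC) and the interferon-stimulated response element (ISRE, read as GAAA, any 2 bases and GAAA). No match overlapped a match of another motif. A C/EBP match began 66 bases before the start of Clec4e, on the opposite strand, and 69 bases before the start of Ptgs2, where the palindrome was read on both strands. Such a match was found in 10.82% of 32534 promoters of the same length. The Clec4d window held an ISRE match on the opposite strand that began at the start of the gene, a motif found in 3.45% of promoters. The Marco window, which is not printed, held a kB match that began 30 bases before the start, and 1.61% of promoters held one. No AP-1 match was found in the 8 windows, against 7.79% of all promoters. The windows of Acod1, Fpr1, Fpr2 and Trem1 held none of these letters, which says nothing about the factors themselves.

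Acod1, the itaconate enzyme, stood at 7.02, 6.55, 6.46 and 7.18 in the control tumors (mean 6.80 ± 0.35, SD, n = 4) and at 6.54, 6.88, 6.31 and 6.24 in the GEM tumors (6.49 ± 0.29). With anti-CD40 Ab it stood at 8.01, 8.08, 8.05 and 8.68 (8.21 ± 0.32), and with GEM/anti-CD40 Ab at 10.92, 9.79, 7.84 and 8.33 (9.22 ± 1.40). All 8 tumors that received the antibody lay above all 8 that did not, with 7.84 as the lowest value with it and 7.18 as the highest without it. GEM/anti-CD40 Ab replicates 1 and 2 lay above every anti-CD40 Ab tumor, while replicates 3 and 4 lay below the highest of them.

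Fpr2, the formyl peptide receptor, stood at 5.76, 6.20, 6.09 and 6.31 in the control tumors (6.09 ± 0.24) and at 6.80, 6.11, 6.55 and 6.66 in the GEM tumors (6.53 ± 0.30). Its values were 7.20, 7.35, 7.47 and 8.26 with anti-CD40 Ab (7.57 ± 0.47) and 11.38, 9.52, 7.64 and 8.31 with GEM/anti-CD40 Ab (9.21 ± 1.64). The 8 antibody-treated tumors again lay above the 8 others, from 7.20 up against 6.80 down. The spread among the GEM/anti-CD40 Ab tumors was wider than in any other group, and replicate 1 was the highest of the 16 arrays.

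Clec4e, the lectin Mincle, stood at 5.44, 5.49, 5.41 and 5.04 in the control tumors (5.35 ± 0.21) and at 6.59, 4.86, 6.15 and 5.56 in the GEM tumors (5.79 ± 0.75). With anti-CD40 Ab the values were 6.20, 6.95, 5.94 and 7.39 (6.62 ± 0.67), and with GEM/anti-CD40 Ab 10.59, 8.73, 6.71 and 7.19 (8.31 ± 1.75). Here the antibody-treated tumors did not stand apart, since GEM replicates 1 and 3 reached 6.59 and 6.15 while the lowest anti-CD40 Ab tumor was at 5.94. All 4 GEM/anti-CD40 Ab tumors lay above all control and GEM tumors.

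Clec4d, the lectin MCL encoded next to Clec4e, stood at 6.33, 6.30, 6.11 and 5.97 in the control tumors (6.18 ± 0.17) and at 6.61, 6.40, 6.54 and 6.17 in the GEM tumors (6.43 ± 0.19). It stood at 7.32, 7.22, 7.67 and 7.85 with anti-CD40 Ab (7.52 ± 0.30) and at 9.88, 8.39, 7.54 and 7.53 with GEM/anti-CD40 Ab (8.34 ± 1.11). As for Acod1 and Fpr2, the lowest antibody-treated tumor (7.22) lay above the highest untreated or GEM tumor (6.61). The only probe set of Clec4d is of the _s_at kind, which can match transcripts of more than 1 gene.

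Marco, the scavenger receptor, was dim in 3 of the groups, at 4.38, 4.56, 4.43 and 4.58 in the controls, 4.84, 4.54, 4.43 and 5.08 with anti-CD40 Ab and 4.64, 4.44, 4.17 and 4.38 with GEM. With GEM/anti-CD40 Ab it stood at 6.99, 5.52, 4.75 and 5.08. These 4 values lay above all control and GEM values, and replicate 1 was the highest of the 16 arrays.

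Trem1 stood at 6.51, 6.90, 6.68 and 6.48 in the controls, at 6.86, 6.61, 7.23 and 7.24 with anti-CD40 Ab, at 6.97, 6.71, 6.85 and 6.94 with GEM and at 7.20, 7.09, 6.83 and 6.84 with GEM/anti-CD40 Ab. All groups overlapped, and the whole range over 16 arrays was 0.76, against 3.91 to 5.73 for Acod1, Fpr2, Clec4e and Clec4d. Its highest array was an anti-CD40 Ab tumor, replicate 4.

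Ptgs2, cyclooxygenase-2, stood at 9.75, 9.33, 9.10 and 8.70 in the controls and at 9.43, 9.37, 10.98 and 9.83 with anti-CD40 Ab. It stood at 9.15, 10.22, 9.27 and 9.04 with GEM and at 10.18, 9.60, 9.74 and 9.81 with GEM/anti-CD40 Ab. The groups overlapped throughout, and single tumors stood out in the anti-CD40 Ab group (replicate 3) and the GEM group (replicate 2).

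**Figure D1:**
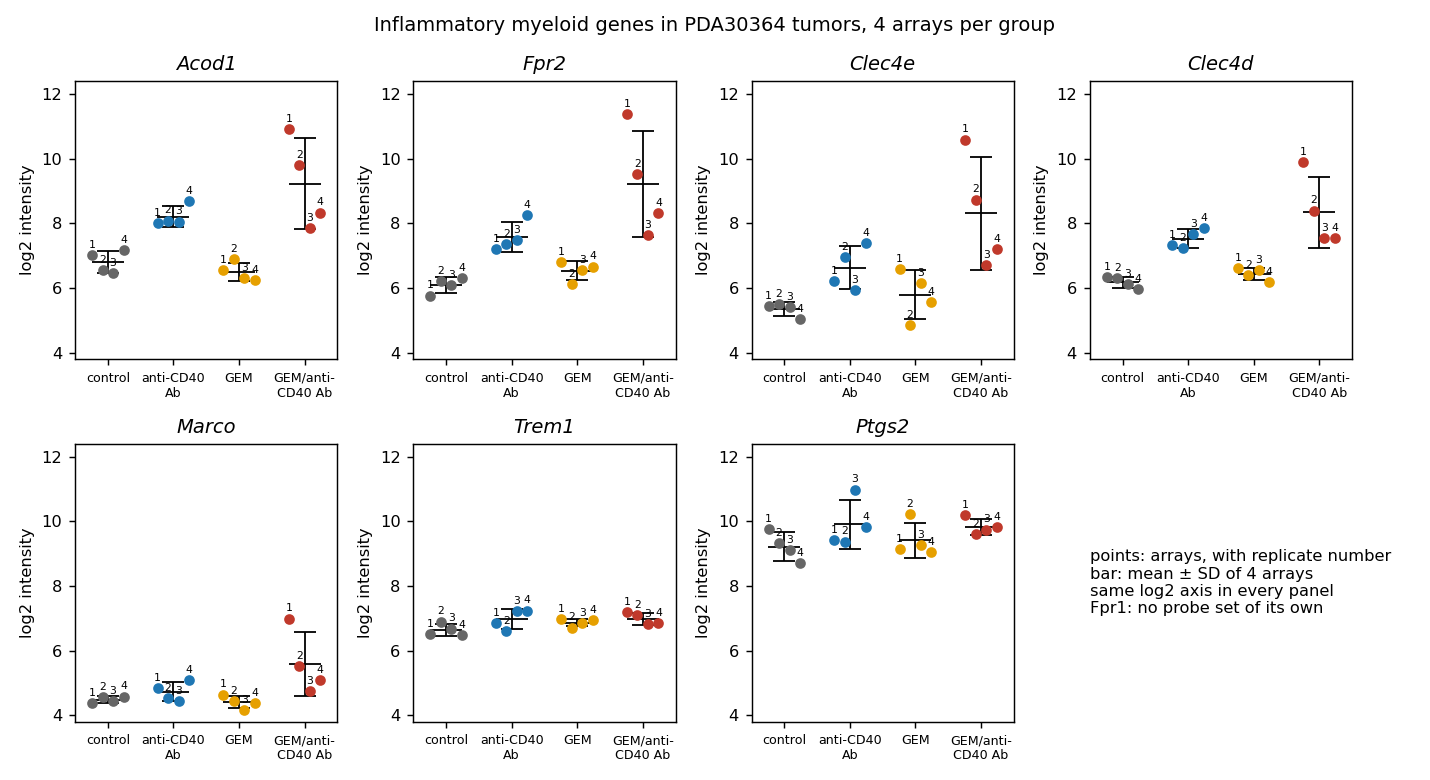
Log2 intensity (vertical axis, the same scale in every panel) of the 7 measured genes in the 4 groups (horizontal axis); points are arrays with their replicate numbers, and the bar is the mean ± SD of 4 arrays. For Acod1, Fpr2 and Clec4d the 8 antibody-treated tumors lie above the 8 others, and for these genes, Clec4e and Marco replicate 1 of GEM/anti-CD40 Ab is the highest of all arrays.

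By the probe sets that stood for them, the 7 genes thus fell into 5 that varied together and 2 that followed them less. The dimmer probe sets of Trem1 and Marco did not keep to this split. That of Trem1 stood at 5.91, 5.27, 5.09 and 5.01 with GEM/anti-CD40 Ab, above all controls (4.48 to 4.96). That of Marco had group means of 4.16 to 4.29. Acod1, Fpr2 and Clec4d, 3 of the 7, had no overlap between the 8 antibody-treated and the 8 other tumors, where 0.118% of 45037 probe sets did in that direction. Part of this contrast chose Acod1 and Fpr2, so nothing is read from the count for them. GEM/anti-CD40 Ab replicate 1 was the highest of its group for 7 of 7 genes and of all 16 arrays for 5 of 7. Replicate 2 was second in its group for 6 of 7, the exception being Ptgs2. The SD within the GEM/anti-CD40 Ab group was 0.99 to 1.75 for the 5 genes and 0.19 to 0.25 for Trem1 and Ptgs2, whereas in the controls it was 0.10 to 0.35 for the 5 genes.

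Correlations over the 16 arrays describe the same split by Pearson's r, but less sharply by rank. Among Acod1, Fpr2, Clec4e, Clec4d and Marco, Pearson's r of the 10 pairs was 0.886 to 0.968 and Spearman's rho 0.675 to 0.918. For deviations from the group means r was 0.800 to 0.935, and without the 2 arrays farthest from the median of the pair's leading gene, in each case GEM/anti-CD40 Ab replicates 1 and 2, r was 0.652 to 0.909. Ptgs2 correlated with the other 6 genes at r of 0.284 to 0.553, and at -0.095 to 0.332 for deviations from the group means. Its rho was 0.311 to 0.697, the highest with Clec4d, which overlaps the rho of the 5. Trem1 reached an r of 0.512 to 0.677 with the 5, 0.357 to 0.592 for deviations from the group means, and a rho of 0.329 to 0.653. The arrays share treatment groups and 1 normalization, so these are descriptions.

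The anti-CD40 Ab comparison with control is the one that chose Acod1 and Fpr2, and it is given without a test. The difference of means was 1.40 for Acod1, 1.48 for Fpr2, 1.28 for Clec4e and 1.34 for Clec4d, which correspond to folds of 2.64, 2.79, 2.42 and 2.53. It was 0.68 for Ptgs2, 0.34 for Trem1 and 0.24 for Marco. The groups did not overlap for Acod1, Fpr2, Clec4e and Clec4d, 4 of 7, and 1.41% of all probe sets were higher without overlap. This contrast chose Acod1 and Fpr2, so nothing is read from the count for them or from the median of the 7 below. The median over the 7 genes was 1.28, against -0.01 over all probe sets, of which limma called 0% at an adjusted p under 0.05 and 2739 at an unadjusted p under 0.05. With the probe sets of each gene averaged in place of the brightest, the median of the 7 genes was 0.83.

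The GEM/anti-CD40 Ab tumors against the GEM tumors ask what anti-CD40 Ab did on top of GEM. Acod1 and Fpr2 were picked for a rise with anti-CD40 Ab, so their values are given here without a test as well. For Acod1 the difference was 2.73 (SE 0.58, fold 6.62), for Fpr2 2.68 (SE 0.68, fold 6.42), for Clec4e 2.52 (SE 0.78, fold 5.72), for Clec4d 1.91 (SE 0.46, fold 3.75) and for Marco 1.18 (SE 0.41, fold 2.26). All 4 GEM/anti-CD40 Ab tumors lay above all 4 GEM tumors for these 5 of 7 genes, where 2.85% of all probe sets did, and nothing is read from the count for Acod1 and Fpr2. None of the other 5 passed limma's test adjusted over all probe sets, with adjusted p of 0.227 for Clec4d, 0.286 for Clec4e and 0.334 for Marco. In this comparison limma called 0% of the 45037 probe sets, and 5211 had an unadjusted p under 0.05, of which the higher ones made up 5.08% of all. Clec4d, Clec4e and Marco were among them, with unadjusted p from limma of 0.00242 for Clec4d up to 0.0186 for Marco. A two-sided exact permutation test of each gene gave p = 0.0286 for these 3, the smallest that the 70 regroupings of 4 against 4 allow. This value follows from the groups not overlapping and adds nothing to it. The genes were also chosen with earlier results of these data known.

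Trem1 and Ptgs2 showed smaller differences in the same comparison. The difference was 0.12 for Trem1 (95% interval from -0.11 to 0.35, limma's adjusted p = 0.679) and 0.41 for Ptgs2 (-0.14 to 0.97, adjusted p = 0.564). Exact permutation p-values were 0.343 and 0.229.

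**Figure D2:**
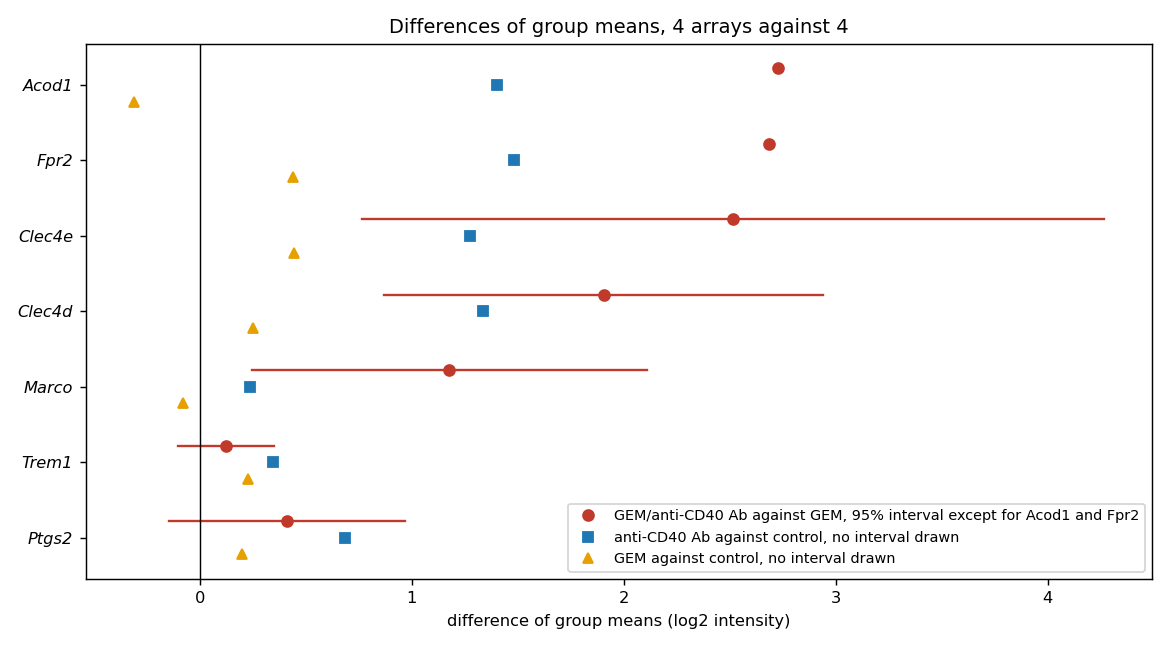
Difference of group means in log2 intensity (horizontal axis) for the 7 genes (vertical axis); circles are GEM/anti-CD40 Ab minus GEM, with limma's 95% interval as a line except for Acod1 and Fpr2, and squares (anti-CD40 Ab minus control) and triangles (GEM minus control) have no interval. Acod1, Fpr2, Clec4e and Clec4d stand at 1.91 to 2.73 in the circles and at 1.28 to 1.48 in the squares, while the triangles run from -0.31 to 0.45.

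The size of these differences depended on 1 tumor. Without GEM/anti-CD40 Ab replicate 1 the difference from GEM was 2.16 for Acod1, 1.96 for Fpr2, 1.75 for Clec4e, 1.39 for Clec4d and 0.71 for Marco. For Marco this moves the value by over 1.5 times. The highest values came without replicate 3 or 4 and ran from 1.46 for Marco to 3.21 for Fpr2. Leaving out each array in turn gave limma's adjusted p of 0.0965 to 0.480 for Clec4d, and none of the 5 tested genes passed.

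Probe sets of the same gene differed in size. Clec4e, Marco, Trem1 and Ptgs2 have 2 probe sets each. The dimmer probe set of Clec4e gave 1.31 for GEM/anti-CD40 Ab minus GEM (SE 0.56), also without overlap of the groups. That of Marco gave 0.13 (SE 0.22), against 1.18 for the brighter one, with group means of 4.16 to 4.29, and its mean over all arrays was at percentile 29.0 of all probe sets. The dimmer Trem1 probe set gave 0.47 (SE 0.19) and the dimmer Ptgs2 probe set 0.78 (SE 0.31), in both cases more than the brighter one. Limma's unadjusted p was 0.0327 and 0.0321 for these, with adjusted p of 0.386 and 0.384, and 95% intervals from 0.05 to 0.89 and from 0.08 to 1.47. Whether the differences of Trem1 and Ptgs2 were smaller than those of the other genes was not tested.

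**Figure D3:**
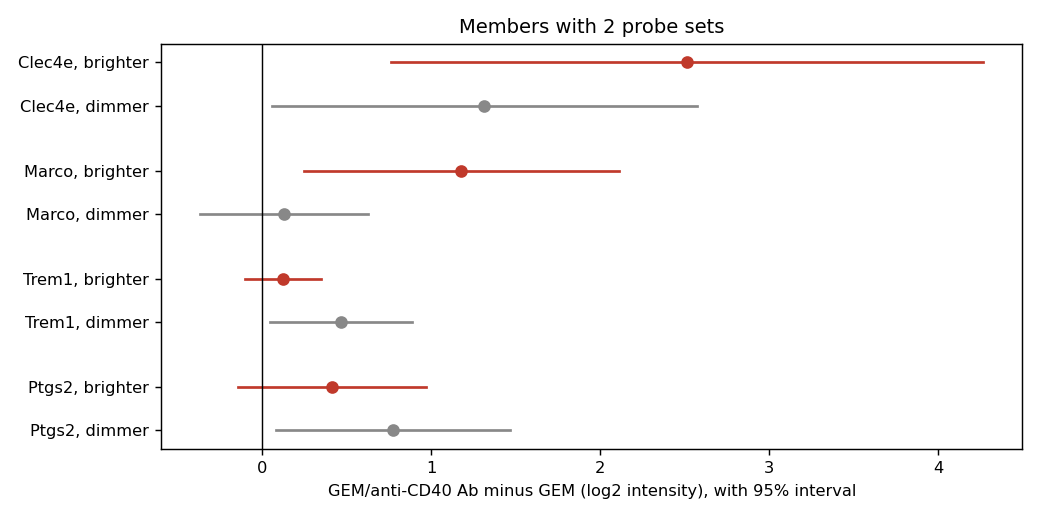
GEM/anti-CD40 Ab minus GEM in log2 intensity (horizontal axis) with limma's 95% interval for the brighter and the dimmer probe set (vertical axis) of the 4 genes that have 2. Both Clec4e probe sets lie above 0, at 2.52 and 1.31, while the 2 Marco probe sets stand at 1.18 and 0.13.

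GEM alone against control is the comparison without antibody. Differences were small, at -0.31 for Acod1, 0.44 for Fpr2, 0.45 for Clec4e, 0.25 for Clec4d, 0.23 for Trem1, -0.08 for Marco and 0.20 for Ptgs2. Acod1 and Fpr2 get no p here because the controls also served to choose them. The other 5 had limma's adjusted p of 0.852 to 0.942, and none had an unadjusted p under 0.05. Of all probe sets limma called 0%, with 2578 at an unadjusted p under 0.05. The 95% interval for Clec4d ran from -0.01 to 0.51 and for Clec4e from -0.27 to 1.16.

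GEM/anti-CD40 Ab against control shares its treated arrays with the comparison above and its controls with the anti-CD40 Ab and GEM comparisons. The difference was 2.42 for Acod1 and 3.12 for Fpr2, without a test. It was 2.96 for Clec4e (SE 0.73), 2.16 for Clec4d (SE 0.46), 1.10 for Marco (SE 0.41), 0.61 for Ptgs2 (SE 0.21) and 0.35 for Trem1 (SE 0.12). All 5 tested genes had an unadjusted p from limma under 0.05, from 0.00124 for Clec4d to 0.0261 for Marco, where 4.34% of probe sets were that far on the higher side. Adjusted p from limma was 0.366 to 0.485, and 0.0178% of all probe sets, 8 in number, passed, none of them for these genes. The groups did not overlap for Acod1, Fpr2, Clec4e, Clec4d and Marco, against 2.25% of all probe sets, and nothing is read from the count for Acod1 and Fpr2. With all 16 arrays in 1 fit Clec4d passed, with limma's adjusted p = 0.0424, among 44 probe sets.

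GEM/anti-CD40 Ab against anti-CD40 Ab asks what GEM did on top of the antibody. The difference was 1.02 for Acod1 and 1.64 for Fpr2, given without a test because the antibody arrays chose these genes. Clec4e differed by 1.69 (SE 0.76), Marco by 0.86 (SE 0.42), Clec4d by 0.82 (SE 0.47), Trem1 by 0.01 (SE 0.15) and Ptgs2 by -0.07 (SE 0.32). The 5 tested genes had limma's adjusted p of 0.937 to 0.997, none had an unadjusted p under 0.05, and the groups overlapped for all 7 genes. Limma called 0% of probe sets, and 2072 had an unadjusted p under 0.05. Without GEM/anti-CD40 Ab replicate 1 the difference was 0.45 for Acod1, 0.92 for Fpr2, 0.92 for Clec4e, 0.31 for Clec4d and 0.39 for Marco.

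The interaction tests whether the difference made by anti-CD40 Ab depended on GEM. The estimate was 1.33 for Acod1 and 1.20 for Fpr2, without a test, and 1.24 for Clec4e (SE 0.90), 0.94 for Marco (SE 0.47), 0.57 for Clec4d (SE 0.53), -0.22 for Trem1 (SE 0.20) and -0.27 for Ptgs2 (SE 0.47). Limma's adjusted p for the 5 tested genes was 0.890 to 0.952, and none had an unadjusted p under 0.05. Limma called 0% of probe sets, and 2359 had an unadjusted p under 0.05. Without GEM/anti-CD40 Ab replicate 1 the estimate was 0.76 for Acod1, 0.48 for Fpr2, 0.48 for Clec4e, 0.47 for Marco and 0.05 for Clec4d.

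Genes that work with the 7 were read from lists of their pathways, by the number above 0 and the median difference in GEM/anti-CD40 Ab against GEM, where the 7 genes had a median of 1.91 and all probe sets -0.03. Acod1 and Fpr2 enter the median of the 7, so nothing is read from it. No gene of these lists passed in this comparison. Of the Dectin-2 cluster lectins and the CARD9 pathway 10 of 11 measured genes were above 0 (median 0.56), of the TREM family with its ligand and adaptor 6 of 7 (0.27) and of the scavenger receptors 10 of 11 (0.44). Inflammatory cytokines of myeloid cells were above 0 in 14 of 15 (0.42) and Toll-like receptor and NF-kB genes in 14 of 17 (0.20). Relatives and ligands of the formyl peptide receptors had 3 of 5 above 0 (0.07), prostanoid genes 10 of 16 (0.08) and enzymes of the TCA cycle 5 of 17 (-0.04).

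The smallest p of these lists in that comparison belonged to Msr1 and Saa3. Saa3, an acute-phase serum amyloid A gene whose family gives ligands of Fpr2, stood at 6.24, 6.47, 7.15 and 6.32 with GEM and at 13.04, 11.63, 9.10 and 10.68 with GEM/anti-CD40 Ab, a difference of 4.57 (SE 0.70, limma's adjusted p = 0.197). It stood at 6.17, 7.56, 6.95 and 6.93 in the controls and at 9.08, 8.05, 8.92 and 10.92 with anti-CD40 Ab, so that the 8 antibody-treated tumors lay above the others and replicate 1 of GEM/anti-CD40 Ab was again the highest. Msr1, the macrophage scavenger receptor A and a relative of Marco, stood at 7.58, 7.61, 7.92 and 7.85 with GEM and at 9.42, 9.15, 8.50 and 8.78 with GEM/anti-CD40 Ab (difference 1.22, SE 0.19, limma's adjusted p = 0.197). Its anti-CD40 Ab tumors stood at 8.22, 8.03, 8.88 and 9.12, above all 4 controls, which ran from 7.27 to 7.77.

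Cxcl3, a chemokine that attracts neutrophils, was the 1 gene of the lists that passed in any comparison, and the call depended on single tumors. It rose by 1.77 with GEM/anti-CD40 Ab against control (SE 0.15, limma's adjusted p = 0.0113), from 6.92 to 7.17 in the controls to 8.97, 9.05, 8.90 and 8.31. It no longer passed when 1 of 5 arrays was left out, namely replicate 1, 3 or 4 of the controls, or replicate 1 or 2 of GEM/anti-CD40 Ab, with limma's adjusted p of 0.0599, 0.0910, 0.0684, 0.0523 and 0.0678 and differences of 1.69 to 1.78. It had the smallest unadjusted p of the lists with GEM alone (difference 0.96, limma's adjusted p = 0.158) and with anti-CD40 Ab alone (1.03, adjusted p = 0.680). With GEM alone it stood at 7.64 to 8.19, above all 4 controls.

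Other genes with the smallest p of the lists came from prostanoid handling and from peptide and lectin signaling. Slco2a1, a prostaglandin transporter, differed by -0.85 with GEM against control (limma's adjusted p = 0.269), and Ptgds, a prostaglandin D synthase, by -0.79 with anti-CD40 Ab against control (adjusted p = 0.680). Camp, the cathelicidin precursor, was at 4.55 to 4.68 with anti-CD40 Ab and at 5.05 to 5.37 with GEM/anti-CD40 Ab, a difference of 0.61 (limma's adjusted p = 0.937) and an interaction of 0.60 (adjusted p = 0.890). Nfkb2, an NF-kB subunit, differed by 0.34 between the same groups (limma's adjusted p = 0.937), and Prkcd, a kinase between SYK and CARD9, had an interaction of 0.35 (adjusted p = 0.890).

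The genes most like 3 of the members over the 16 arrays were ranked by Pearson's r among genes with a mean of at least 5. For Acod1 they were Zbp1 (0.964), Samhd1 (0.962), Il18bp (0.960), Cd274 (0.958) and Bst1 (0.957), with rho of 0.871 to 0.949 and r within groups of 0.872 to 0.946. For Fpr2 they were Ccl2 (0.976), F10 (0.973), Mcemp1 (0.967), Emb (0.962) and Chil1 (0.959), and for Clec4e Chil1 (0.971), Hvcn1 (0.960), Ccl2 (0.950), Adgre4 (0.942) and Gpr84 (0.940). Ccl2 and Chil1 were among the 5 for both Fpr2 and Clec4e and not among those for Acod1. Ccl2, the monocyte chemoattractant, stood at 7.04, 7.21, 6.99 and 7.15 in the controls, 7.45, 7.27, 7.32 and 7.13 with GEM, 7.83, 7.88, 7.72 and 8.31 with anti-CD40 Ab and 9.55, 8.81, 7.55 and 8.43 with GEM/anti-CD40 Ab. Its 8 antibody-treated tumors lay above the others, as those of Fpr2 did. Ccl2 is named for its r with Fpr2, which was itself picked for a rise with anti-CD40 Ab, so nothing is read from this likeness.

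Markers of cells that can express these genes are set beside these values. The mean of 9 measured neutrophil markers was 7.88, 7.83, 7.48 and 7.23 in the GEM/anti-CD40 Ab tumors and 6.92, 6.57, 6.79 and 7.12 in the GEM tumors, so that the groups did not overlap, and 9 of 9 markers were above 0 (median difference 0.69). With anti-CD40 Ab alone it was 6.97, 7.14, 6.84 and 7.09, against 6.80, 7.33, 6.39 and 6.80 in the controls. These groups overlapped. The value of 7.33 was that of control replicate 2, an array high in skin genes. The highest anti-CD40 Ab value, 7.14, was that of replicate 2, also high in skin genes. Leaving aside control replicate 2, the lowest anti-CD40 Ab value lay only slightly above the highest control, at 6.84 against 6.80. The mean of 11 macrophage and monocyte markers was 9.87, 9.49, 8.65 and 9.33 with GEM/anti-CD40 Ab and 8.37, 8.40, 8.92 and 9.17 with GEM, with 10 of 11 above 0 (0.73), but replicate 3 of GEM/anti-CD40 Ab lay below GEM replicates 3 and 4. In the anti-CD40 Ab tumors it was 8.64 to 9.40, against 8.39 to 9.22 in the controls. No marker of these lists passed limma's test in any comparison, and their part in the values of the 7 genes was not tested.

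Markers of other cells are given for the same comparison. Dendritic cell markers differed by -0.04 in the median between GEM/anti-CD40 Ab and GEM and T and B cell markers by 0.24, tumor epithelium markers by -0.05 and fibroblast markers by 0.03. The mean of 8 measured T and B cell markers was 6.405, 6.049, 5.695 and 5.395 with GEM/anti-CD40 Ab. With GEM it was 5.201, 5.321, 5.194 and 5.214, so that the groups did not overlap. Over the 16 arrays this mean had an r of 0.801 with Acod1 and 0.635 with Fpr2, against 0.747 and 0.815 for the neutrophil markers. For deviations from the group means these were 0.799 and 0.659, against 0.395 and 0.507. The macrophage and monocyte markers had 0.715 and 0.733 over the arrays, and 0.611 and 0.677 for the deviations. Acod1 and Fpr2 were picked for a rise with anti-CD40 Ab, so these are descriptions. The tumor epithelium markers averaged 11.36 to 12.07 in all 16 arrays. Endothelial markers were above 0 in 8 of 8 (0.53). Of the 3 arrays left out as highest in skin or muscle genes only GEM/anti-CD40 Ab replicate 4 enters its comparison with GEM. Without it the difference was 3.02 for Acod1, 2.98 for Fpr2, 2.89 for Clec4e, 2.17 for Clec4d and 1.35 for Marco. Its values lay below the group mean for these genes, so leaving it out has to raise each difference. The part of muscle in the values was not tested. GEM replicate 4, with a muscle mean of 7.69 against 4.70 to 5.42 in the other GEM tumors, enters the same comparison and was kept. Without GEM replicate 4 the median difference of the 7 genes was 1.82, against 1.91 with it.

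**Figure D4:**
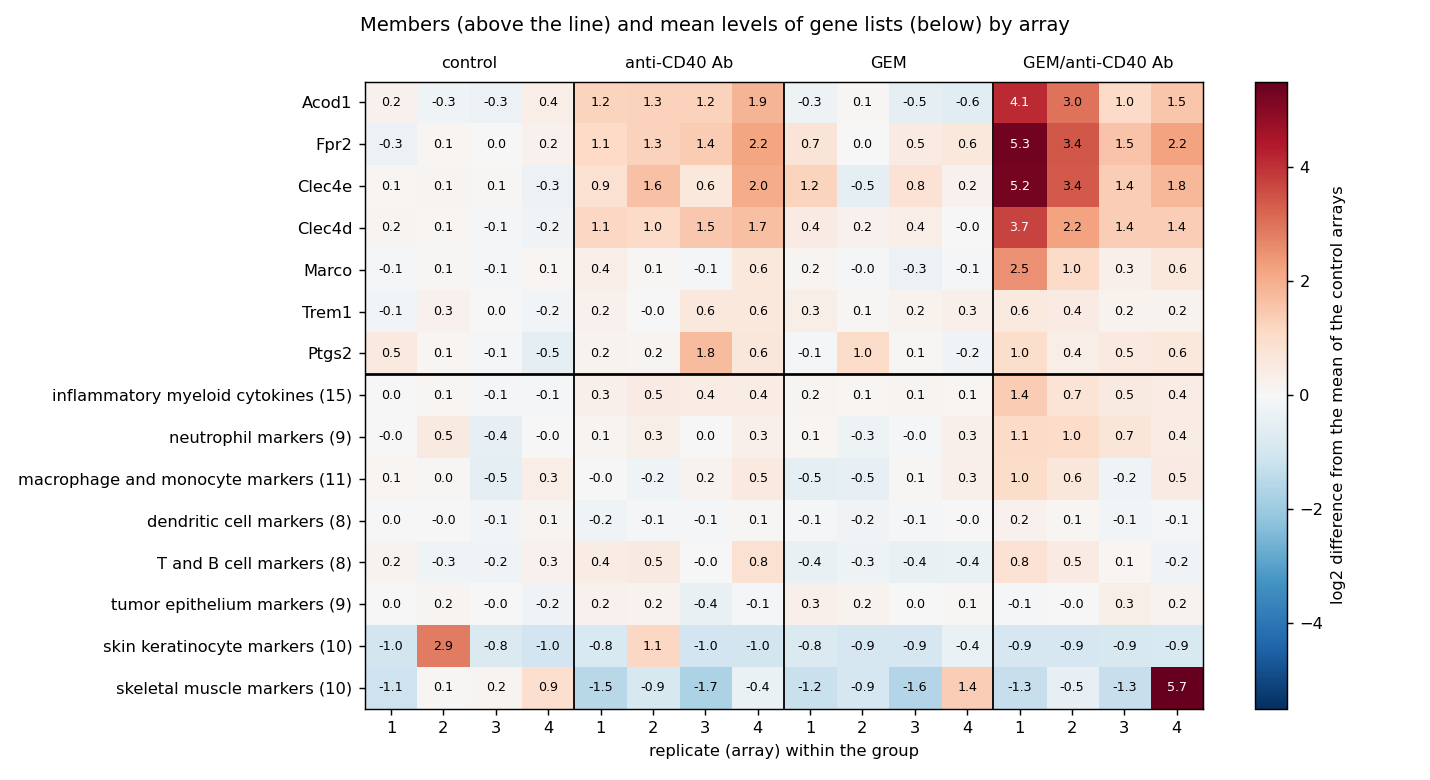
Each column is an array, grouped by treatment, and each cell is the log2 difference from the mean of the control arrays, for the 7 genes above the line and for the mean level of gene lists below it (number of measured genes in brackets). GEM/anti-CD40 Ab replicates 1 and 2 are high in Acod1, Fpr2, Clec4e and Clec4d and, to a lesser degree, in the cytokine, neutrophil, macrophage and T and B cell lists. The skin and muscle lists are high in other arrays.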

How the data were processed

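RNA of tumor pieces was measured on 16 Affymetrix mouse genome arrays. The authors normalized the arrays in Chipster by RMA (robust multichip averaging), a background correction, quantile normalization and probe summary in 1 step, and deposited a log2 intensity for each probe set. Its version is not given in the sources used here. Groups and replicates follow the sample titles. Of 45101 probe sets, 64 array controls were left out. Of the remaining 45037, the platform annotation gave 34945 a single gene symbol and 932 several, and 9160 are unnamed here.

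Pairs of groups were compared on 8 arrays, and the interaction on 16, with limma 3.58.1 in R 4.3.3, two-sided, Benjamini-Hochberg over all probe sets, at an adjusted p under 0.05. The code was tested on simulated data. Alternatives were 1 fit over all arrays, a filter at the median, a trended and robust prior, array weights, 75th percentile scaling, quantile normalization, averaged probe sets per gene, representatives other than _x_at or _s_at where a gene has one (none of the 7 changed, and Clec4d has only an _s_at probe set), a replicate block, GEM replicates 3 and 4 averaged, an added log2 difference of 1, 3 arrays with skin or muscle genes left out, and each array left out.

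The 8 genes and all lists were chosen with earlier results of these data known. Acod1 and Fpr2 were picked for their rise with anti-CD40 Ab, and no p is given for them, although the design had set a test in GEM/anti-CD40 Ab against GEM. Named are the 8 genes, list genes that pass (else the 2 with the smallest p of the pathway lists) and the 5 genes most correlated with Acod1, Fpr2 and Clec4e. Promoters are RefSeq's (GRCm38.p6), and all 8 genes had one. With 4 arrays per group, p-values measure only the spread between these tumors, and that number limits the precision.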

Additional observations from a re-analysis of the deposited data

Results flagged for a closer look

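Acod1 in anti-CD40 Ab replicate 4, at 8.68, stood apart from the other tumors of its group, the nearest of which was at 8.08. The gap was 0.896 of the group's range, above the 95% critical value of Dixon's test for 4 arrays. Of 28 such groups tested, 7 genes in 4 groups, chance is expected to single out about 1 in 20.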

How the results depend on the processing

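With 4 arrays per group, 1 tumor can set the size of a difference, and leaving out GEM/anti-CD40 Ab replicate 1 gave the lowest value of the difference from GEM for 6 of the 7 genes. Acod1 and Fpr2 are given without a test, as are all 7 genes in anti-CD40 Ab against control. Of the other 5 genes, 0 passed in the other comparisons under each alternative run but 1. With all 16 arrays in 1 fit it was 1 for GEM/anti-CD40 Ab against control (Clec4d, limma's adjusted p = 0.0424), where 44 probe sets passed in place of 8. With a trended and robust prior 13 probe sets passed there, without control replicate 2 and GEM/anti-CD40 Ab replicate 4, high in skin or muscle genes, 2, with the replicate block 0, and without 1 array 0 (GEM/anti-CD40 Ab replicate 2) to 11. Where limma called 0 in the comparison as designed, alternatives called up to 8 for GEM against control, 3 for anti-CD40 Ab against control and 1 for GEM/anti-CD40 Ab against GEM. The filter at the median left out Marco. The median for anti-CD40 Ab against control was 1.28, and 0.825 with the probe sets of each gene averaged, where the dimmer probe sets enter. Without 1 array it was 1.02 to 1.40. Directions turned for values near 0. Trem1 in GEM/anti-CD40 Ab against anti-CD40 Ab was 0.005, but -0.017 with 75th percentile scaling, -0.021 with quantile normalization and -0.070 without the skin or muscle arrays, and ran from -0.120 to 0.090 without 1 array. Ptgs2 there was -0.07, but 0.052 with array weights, and ran from -0.248 to 0.289 without 1 array. Ptgs2 in GEM against control was 0.20, but -0.006 with the mean of its probe sets, and ran from -0.067 to 0.377 without 1 array. Its interaction ran from -0.448 to 0.089. The causes were not tested. With the replicate number as a block 0 of the 5 genes passed in each comparison, as without it, but the 8 probe sets called for GEM/anti-CD40 Ab against control, Cxcl3 among them (limma's adjusted p = 0.0800), no longer passed. Samples with the same number had correlations of their deviations from -0.470 to 0.486, in the pairs of groups looked at. No such values are given for samples with different numbers, so these cannot decide whether the numbers pair the tumors. GEM replicates 3 and 4, whose titles share an animal number, differed as much as other GEM tumors (SD of the difference 0.260, against 0.211 to 0.281). This cannot show whether they are 2 tumors, and they were kept as 2.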
